A study of Mus musculus with 16 samples.

Results

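A set of 10 genes of the NF-κB pathway was followed in single light zone (LZ) germinal center (GC) B cells of the mouse. They are the subunits *Rel*, *Rela*, *Relb*, *Nfkb1* and *Nfkb2* and 5 genes that NF-κB induces and that act back on the pathway, *Nfkbia*, *Nfkbie*, *Tnfaip3*, *Traf1* and *Bcl3*. The genes were taken by symbol, and all 10 are among the 56691 genes of the count matrix. B1-8hi BTKC481S and B1-8hi BTKWT B cells, which carry a knock-in heavy chain giving a high-affinity receptor for the hapten NP, had been transferred together into OVA-primed male hosts. The hosts were boosted with NP-OVA, and popliteal lymph nodes were taken 7 days later. Acalabrutinib, an inhibitor of the kinase BTK, was given by mouth to 5 hosts (A7, A8, A10, A11 and A12) as 3 doses, and LZ cells were sorted 14 h after the first dose and 2 h after the last. Vehicle was given to 3 hosts (V5, V7 and V9). The C481S change makes BTK insensitive to the drug. Cell names give the host but not the genotype, so the genotypes of a host were pooled, and B1-8hi BTKWT was not compared with B1-8hi BTKC481S here. Since drug-resistant cells are part of every host sum, the comparison of treatments covers a mixture of sensitive and resistant cells.

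NF-κB is a family of dimeric transcription factors held inactive in the cytoplasm by inhibitors of the IκB class. In the canonical arm, signals from the B cell receptor or from CD40 lead the IKK complex to degrade IκB proteins, and dimers of c-Rel (*Rel*) or RelA (*Rela*) with p50 (made from *Nfkb1*) enter the nucleus. In the non-canonical arm, CD40 and BAFF receptor signals lead to processing of the p100 product of *Nfkb2* to p52, which pairs with RelB (*Relb*). The IκB genes *Nfkbia* and *Nfkbie*, the ubiquitin-editing enzyme A20 (*Tnfaip3*), the adaptor *Traf1* and the atypical IκB protein *Bcl3* are targets of NF-κB, and so are *Rel*, *Relb*, *Nfkb1* and *Nfkb2*. In the LZ, *Myc* is known to be transiently expressed by cells that have received help from T follicular helper cells, part of which comes through CD40.

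Promoters of the members are shown because κB sites, the sequences that NF-κB dimers bind, are frequent in them. RefSeq promoters of assembly GRCm38.p6, 250 bases before to 50 bases after the start, were given for 8 of the 10 members, *Relb* and *Nfkb1* having none in the table. The κB consensus was searched on both strands, with overlapping matches kept. It was found in 1480 of 32851 promoters of the same length (4.51%) and in 8 of the 11 promoters of the members. Counted by gene, 6 of the 8 members had a promoter with a match (*Rel*, *Nfkb2*, *Nfkbia*, *Nfkbie*, *Tnfaip3* and *Bcl3*). The 4.51% is a share of promoters and not of genes. In 4 members the sequence runs as follows, 5′ to 3′ on the gene's strand, with κB consensus matches in capitals. *Nfkbia* (chr12:55492598-55492897, minus strand) and *Nfkb2* (chr19:46304487-46304786, plus strand, the first of 3 starts) are the members with the smallest p between cells with and without a *Cd40* or *Myc* count. *Rel* (chr11:23770920-23771219, minus strand) is the member found in most cells. *Traf1* (chr2:34961723-34962022, minus strand) is the only member that edgeR called between cycling and G1 cells.
Nfkbia: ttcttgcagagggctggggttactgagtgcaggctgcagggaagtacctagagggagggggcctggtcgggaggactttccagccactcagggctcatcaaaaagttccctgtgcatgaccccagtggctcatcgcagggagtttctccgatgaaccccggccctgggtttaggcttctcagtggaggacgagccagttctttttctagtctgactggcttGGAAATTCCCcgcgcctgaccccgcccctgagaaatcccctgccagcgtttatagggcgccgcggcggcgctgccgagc
Nfkb2: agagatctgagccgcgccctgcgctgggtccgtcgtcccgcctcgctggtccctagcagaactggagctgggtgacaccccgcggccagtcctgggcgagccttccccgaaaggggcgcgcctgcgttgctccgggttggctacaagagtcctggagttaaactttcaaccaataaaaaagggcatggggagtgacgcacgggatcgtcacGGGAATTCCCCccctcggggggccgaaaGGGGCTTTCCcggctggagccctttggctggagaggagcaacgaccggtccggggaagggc
Rel: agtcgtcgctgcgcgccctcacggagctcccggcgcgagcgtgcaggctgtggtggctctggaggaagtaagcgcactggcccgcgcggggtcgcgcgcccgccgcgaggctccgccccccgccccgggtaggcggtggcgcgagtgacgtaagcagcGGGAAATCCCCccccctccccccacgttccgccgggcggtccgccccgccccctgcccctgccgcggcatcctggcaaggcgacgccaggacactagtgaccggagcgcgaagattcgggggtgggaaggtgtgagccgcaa
Traf1: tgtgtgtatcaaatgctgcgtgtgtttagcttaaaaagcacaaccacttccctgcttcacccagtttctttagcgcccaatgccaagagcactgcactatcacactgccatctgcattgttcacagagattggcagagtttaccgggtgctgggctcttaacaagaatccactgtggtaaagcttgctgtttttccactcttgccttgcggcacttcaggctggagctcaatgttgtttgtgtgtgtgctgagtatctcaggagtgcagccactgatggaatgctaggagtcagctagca
In *Nfkbia* the match GGAAATTCCC begins 29 bases before the start. In *Nfkb2* a pair of overlapping matches, GGGAATTCCC and GGAATTCCCC, begins 39 and 38 bases before the start, and GGGGCTTTCC follows at 11 bases before it. The other starts of *Nfkb2* also hold matches, among them GGGACTTTCC. This site lies where their windows overlap, so the count by promoter includes it in both. In *Rel* the overlapping matches GGGAAATCCC and GGAAATCCCC begin 92 and 91 bases before the start. No match to the consensus was found in these windows of *Traf1* and *Rela*. A match is a description of the sequence, and binding was not measured.

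Cells had 132412 to 1825420 counts each (median 789357), and host sums held 26778559 to 114987280. Every cell had a count of at least 1 of 8 B cell genes, whose summed level lay between 6525 and 9475 CPM (counts scaled to the total of each sum) over hosts, and *Ms4a1* is listed at 0 throughout. Of the zone markers, 4 light zone genes (*Nfkbia* and *Cd40* among them) summed to 1810 to 2824 CPM per host and had a count in 606 cells. Without *Nfkbia* and *Cd40* the sum was 1567 to 2272 CPM, with a count in 581 cells. The 4 dark zone genes summed to 834 to 1153 CPM and had a count in 590 cells. A list of 5 plasma cell genes summed to 893 to 1522 CPM and had a count in 602 cells. Of these, *Jchain* had a count in 581 cells and *Xbp1* in 357, against 63 for *Irf4*, 40 for *Prdm1* and 15 for *Sdc1*. Of 8 T cell genes 8 had a count somewhere, in 43 cells (6.75%), with sums of 0.04 to 21.6 CPM per host. Of 8 macrophage genes 7 had a count, in 286 cells, with sums of 22.0 to 36.3 CPM, and *Itgam* is listed at 0. Among them *Adgre1* had a count in 243 cells and *Cd68* in 58, and each of the rest in 14 or fewer. Cells were called G1 (248), S (241) or G2/M (148) from their cell cycle genes, and 250 cells had a *Cd40* count and 177 a *Myc* count.

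*Rel*, which encodes c-Rel, was the member found in most LZ cells. It had a count in 481 cells, 75.5% of all cells (exact binomial 95% interval 72.0 to 78.8%). Next came *Nfkbia* (49.5%), *Traf1* (44.4%), *Nfkb1* (41.0%), *Nfkb2* (37.4%), *Rela* (32.2%) and *Relb* (30.0%). The least often found were *Nfkbie* (21.8%), *Tnfaip3* (13.2%) and *Bcl3* (11.5%). The interval treats cells as independent and leaves out the spread between hosts, over which the share of *Rel* ran from 67.3 to 83.6%. The reads carry no molecular identifiers. With a threshold of 10 counts *Rel* stood at 71.7% and *Bcl3* at 8.32%, and with cells thinned to the same 459128 counts at 76.6% and 10.99%. When a member was found, it was found with many reads. The median was 521 counts for *Rel* in cells with a count, and 245 to 363 for the other members except *Bcl3*, which had fewer.

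Summed per host and scaled to CPM, *Rel* stood at 596 ± 107.2 CPM (SD, n = 8 hosts). *Nfkbia* and *Traf1* followed at 213 ± 54.2 and 213 ± 74.7 CPM. *Nfkb1*, *Nfkb2*, *Relb* and *Rela* lay at 194 ± 37.8, 171 ± 43.3, 138 ± 32.5 and 123 ± 18.2 CPM. *Nfkbie* (76.8 ± 21.2 CPM), *Tnfaip3* (56.8 ± 19.7 CPM) and *Bcl3* (14.4 ± 8.43 CPM) were lowest. The spread between hosts was widest in *Bcl3*, where the highest host had 6.91 times the level of the lowest, and narrowest in *Rela*, with 1.51 times. The top 10% of cells held 98.8% of *Tnfaip3* counts and 99.9% of *Bcl3* counts, against 35.1% of *Rel* counts. This largely restates detection, since *Tnfaip3* had a count in 84 cells and *Bcl3* in 73.

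**Figure D1:**
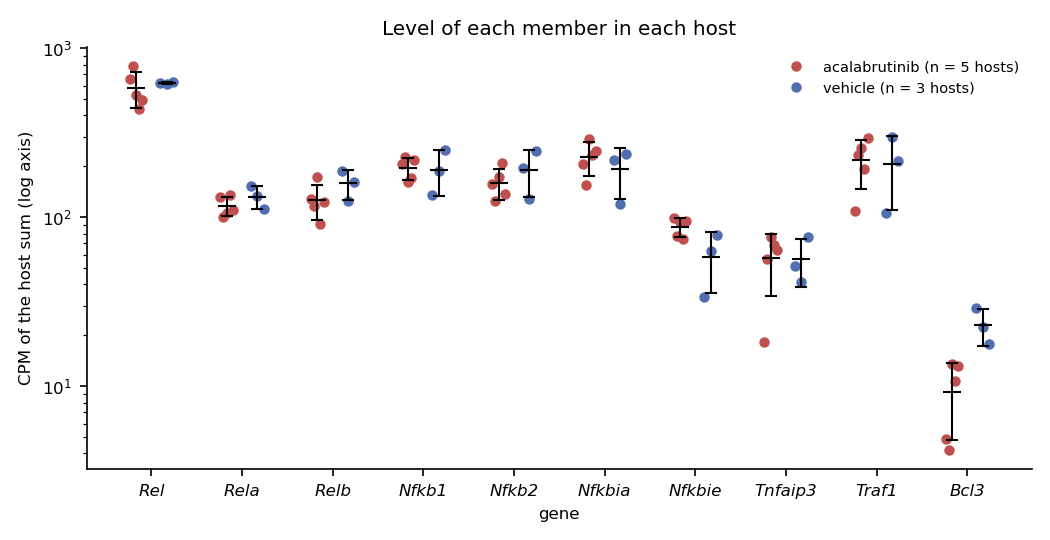
Level of each of the 10 members in each host, as CPM of the counts summed over the host's cells (log axis). Points are hosts (red acalabrutinib, n = 5, blue vehicle, n = 3), and black bars are the mean ± SD; *Rel* is highest, and *Bcl3* has the only pair of groups that do not overlap.

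To compare levels between genes, CPM was divided by exon length, taken over the merged exons of all annotated transcripts of a gene. This orders the members differently. Per kilobase of exon, *Nfkbia*, whose transcript is short, was highest (133 ± 33.7 CPM per kb), followed by *Rel* (79.8 ± 14.4). *Rela* (39.9 ± 5.91), *Nfkb2* (37.4 ± 9.45) and *Relb* (35.6 ± 8.38) came next. *Nfkbie* (25.2 ± 6.97), *Traf1* (24.2 ± 8.47) and *Nfkb1* (16.1 ± 3.14) were lower, and *Tnfaip3* (7.86 ± 2.73) and *Bcl3* (5.83 ± 3.41) lowest. Among neighbours in this order, the mean log2 ratio was larger than its SD over hosts between *Nfkbia* and *Rel* (0.71 ± 0.60, the same order in 6 of 8 hosts), *Rel* and *Rela* (0.99 ± 0.36, 8 of 8) and *Nfkb1* and *Tnfaip3* (1.12 ± 0.75, 8 of 8). For the other neighbours the mean log2 ratio was smaller than its SD, and no test was run. *Rela* was above *Nfkb2* in 5 of 8 hosts, *Nfkb2* above *Relb* in 3 and *Relb* above *Nfkbie* in 7. *Nfkbie* was above *Traf1* in 4 hosts, *Traf1* above *Nfkb1* in 7 and *Tnfaip3* above *Bcl3* in 6. Intronic reads were counted too, so a scale by exon length raises genes with much unspliced RNA. Merged exons can be longer than any single transcript, which lowers such genes. They spanned 12.1 kb in *Nfkb1* and 1.61 kb in *Nfkbia*. A further limit is that the gene body of *Nfkb2* overlaps *Psd* on the opposite strand over 299 bases, with 8478 *Psd* counts beside 94231 of *Nfkb2*. *Nfkb2* also overlaps AC114539.1 over 1292 bases on the opposite strand, and that gene is not in the count matrix. *Nfkb1* overlaps *Gm43430* on the same strand over 3897 bases. *Bcl3* overlaps *Gm16175* and *Gm16174* on the opposite strand over 2264 and 2073 bases. *Gm43430*, *Gm16175* and *Gm16174* each had 0 counts. The part of these overlaps in the levels was not tested.

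The comparison of hosts addresses whether blocking BTK moved these genes. No member passed the test between acalabrutinib and vehicle hosts (edgeR quasi-likelihood test, Benjamini-Hochberg adjusted p = 1 for each member). Over all genes 0 of 18016 were called (0%), with 616 at an unadjusted p under 0.05 and 105 called by DESeq2, with no member among them. The median log2 fold change was -0.06 for the members and 0.02 for all genes tested. Of the 59 other pathway genes tested, 0 were called. At the spread of these data edgeR's test found 66 of 200 simulated 4-fold changes (33.0%), in genes drawn over a wide range of levels. The rate was not worked out for the members alone. A count of 0 therefore does not show that the members were unmoved.

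*Bcl3* gave the largest fitted difference. It stood at 4.85, 4.20, 13.5, 10.7 and 13.2 CPM in A7, A8, A10, A11 and A12, and at 29.0, 22.3 and 17.7 CPM in V5, V7 and V9. Each acalabrutinib host was below each vehicle host, and the log2 fold change was -1.37 ± 0.66 (SE) with an unadjusted p of 0.066. It was the only member whose groups did not overlap in CPM, and 1.15% of all genes tested lay as low without overlap. These are levels of a gene found in 73 cells in all, with 7403 counts. *Nfkbie* leaned the other way. Its levels were 98.96, 77.4, 93.2, 74.6 and 95.1 CPM in the acalabrutinib hosts and 33.5, 63.4 and 78.5 CPM in the vehicle hosts. V9 was higher than A8 and A11, so the groups overlapped (log2 fold change 0.59 ± 0.28, unadjusted p = 0.058).

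*Rel* did not follow the same pattern in its level and its share of cells. Its level was 656, 782, 531, 439 and 491 CPM in A7, A8, A10, A11 and A12, which spans the 621, 612 and 633 CPM of V5, V7 and V9. Its share of cells was 73.3, 73.0, 67.3, 75.4 and 67.9% in the acalabrutinib hosts and 78.9, 83.6 and 80.8% in the vehicle hosts. All acalabrutinib hosts were lower in share, a separation in this direction that 0.994% of the genes tested show and on which no test was run. The canonical partners *Rela* (log2 fold change -0.21 ± 0.21) and *Nfkb1* (0.04 ± 0.21), the non-canonical *Relb* (-0.35 ± 0.24) and *Nfkb2* (-0.26 ± 0.23), and *Nfkbia* (0.22 ± 0.25), *Tnfaip3* (-0.01 ± 0.41) and *Traf1* (0.05 ± 0.34) had overlapping groups. The cells came from 2 independent experiments, and which host belongs to which is not given in the sources used here, so experiment and treatment cannot be told apart. The sums of T cell genes were 0.71 to 21.6 CPM in acalabrutinib and 0.04 to 12.4 CPM in vehicle hosts, and their part in these values was not tested.

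*Nfkb2*, *Nfkbia* and *Relb* were higher in cells with a *Cd40* count than in cells without one in every host. CD40 is the receptor through which T cells activate both NF-κB arms. None of the 3 passed edgeR's test over all genes, and DESeq2 called all 3. The 250 cells with a *Cd40* count were set against the 387 without, within each host, and edgeR with a host term called 0 of 12737 genes (0%), leaving out *Cd40* itself, with 577 at an unadjusted p under 0.05 and 430 called by DESeq2. The median log2 fold change was 0.65 for the members and -0.10 for all genes tested. The median depth was 829629 counts in cells with and 768502 in cells without *Cd40*. The other 2 light zone markers, *Cd83* and *Cd86*, summed to 1992 to 2956 CPM with and 1200 to 1997 CPM without *Cd40* over hosts, and the 4 dark zone markers to 624.6 to 990.5 CPM with and 792 to 1313 CPM without. Their part in the differences by *Cd40* was not tested.

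*Nfkb2*, the p100 gene, had 181 to 332 CPM in the 8 sums with *Cd40* (median 217) and 83.7 to 161 CPM in the 8 without (median 127). The ranges did not overlap, as was so for 1 of the 10 members and, in this direction, for 0.0314% of the genes tested. The log2 fold change was 0.95 ± 0.12 (SE), higher in 8 of 8 hosts, with the smallest p of all genes tested (9.99e-06) and an adjusted p of 0.0502. *Nfkb2* was called in 3 of 16 alternatives. The adjusted p was 0.0444 with relative log expression factors, 0.0355 with at least 10 *Cd40* counts marking a cell and 9.61e-10 with DESeq2. It was between 0.104 and 0.315 when a host was left out, and reached 0.9997 over the alternatives. *Nfkbia* ran from 127 to 429 CPM (median 349) with *Cd40* and from 73.9 to 193 CPM (median 138) without. The overlap came from V7, where the gene had about the same level in both. The log2 fold change was 1.25 ± 0.22, 4 in the order by p, with an adjusted p of 0.325. It was higher in 8 of 8 hosts. It passed in 2 of 16 alternatives, with DESeq2 (adjusted p = 4.62e-07) and with edgeR without the host term (adjusted p = 0.0408). The fit without the host term ignores that both sums come from the same host. Over the alternatives the adjusted p of *Nfkbia* reached 0.9997. *Relb*, the partner of p52, had 98.3 to 325 CPM (median 178) with *Cd40* and 72.9 to 114 CPM (median 101) without. Its log2 fold change was 0.91 ± 0.19 (adjusted p = 0.468, 8 of 8 hosts). It was called in 1 of 16 alternatives, DESeq2, with an adjusted p of 0.000272. These 3 members were higher in every host, against 0.605% of the genes tested.

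Of the canonical subunits, *Rel* was 666 ± 92.8 CPM with and 549 ± 135 CPM without *Cd40* (log2 fold change 0.32 ± 0.12, 7 of 8 hosts, adjusted p = 0.999). *Rela* was at -0.10 ± 0.30, higher in 5 of 8 hosts. *Nfkb1* was at -0.06 ± 0.31, although it was higher in 6 of 8 hosts, and A7 had 55.5 CPM with and 292 CPM without *Cd40*. Without A7 its log2 fold change was 0.22. Among the feedback genes, *Tnfaip3* (1.25 ± 0.59) and *Bcl3* (1.05 ± 0.70) had fitted differences above that of *Nfkb2* with wider errors, and *Nfkbie* (0.39 ± 0.27) and *Traf1* (0.24 ± 0.18) smaller ones. Whether *Nfkb2* differed from *Nfkb1*, or 1 arm from the other, was not tested. A *Cd40* count marks mRNA, and signaling through CD40 was not measured. Of the 53 other pathway genes tested beside *Cd40*, 0 were called. *Birc3*, an inhibitor of apoptosis that is an NF-κB target, followed *Nfkb2* in the order by p (log2 fold change 1.08, adjusted p = 0.0502), and it is named after its values were seen.

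*Nfkbia* was the member that edgeR called with *Myc*, the transcription factor that drives growth of selected LZ cells. It rose 3.25-fold in the 177 cells with a *Myc* count over the 460 without. In the sums with *Myc* it had 336 to 578 CPM (median 421), and in those without 84.7 to 203 CPM (median 128). Every host was higher with *Myc*, and the lowest sum with *Myc* exceeded the highest without, a separation that 0.142% of the genes tested show. The log2 fold change was 1.70 ± 0.21 (SE, adjusted p = 0.0236), 3 in the order by p over 12714 genes. It was 1 of 6 genes called (0.0472%), 4 of them higher (0.0315%), and 1 of the 10 members. At an unadjusted p under 0.05 there were 1053 genes, and DESeq2 called 1194.

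That call was sensitive to which hosts were included. *Nfkbia* kept an adjusted p under 0.05 without A7 (0.0496) and without A12 (0.0388), and had 0.0597 to 0.0909 without A8, A10, A11, V5, V7 or V9, with a log2 fold change of 1.60 to 1.83 in all of these. Most genes were fitted lower in cells with *Myc*, with a median log2 fold change of -0.42 over all genes tested, so *Nfkbia* stood 2.12 above that median. The fit within G1 cells gave 2.16 (adjusted p = 1), with 4 hosts, since A7, A12, V5 and V7 had fewer than 5 cells in one of the sums. That within S or G2/M cells gave 1.27 (adjusted p = 0.696), with 5 hosts, without A7, A8 and V7. Median depth was 890495 counts with and 751578 without *Myc*, and with all cells thinned to the same depth the log2 fold change was 1.70 (adjusted p = 0.0455), with 7 hosts, without A7. Over all cells, the sums of cells with *Myc* held 5 to 50 cells each, and those without held 36 to 83. The part of this imbalance in the median over all genes was not tested. *Cd83* and *Cd86* summed to 1443 to 3046 CPM with and 1261 to 2150 CPM without *Myc*, and the dark zone markers to 671 to 1336 CPM with and 851 to 1192 CPM without. Their part in the *Nfkbia* difference was not tested.

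*Nfkb2* had 180 to 340 CPM (median 296) with *Myc* and 92.6 to 189 CPM (median 123) without. It was higher in 8 of 8 hosts, as were 1.16% of the genes tested, with a log2 fold change of 1.09 ± 0.18 and an adjusted p of 0.0887. *Nfkb2* was called in 2 of 16 alternatives, by DESeq2 (adjusted p = 2.91e-07) and by edgeR without the host term (adjusted p = 0.0165). The latter ignores that both sums come from the same host. Neither *Nfkb2* nor the remaining 8 members passed edgeR's test with the host term, although all 10 members were fitted above the median of all genes and above 0. The median over the members was 0.58. *Tnfaip3* (1.46 ± 1.31), *Bcl3* (0.92 ± 0.81) and *Nfkbie* (0.67 ± 0.49) had errors nearly as large as the difference, and *Traf1* was at 0.49 ± 0.26. *Relb* (0.46 ± 0.26), *Rela* (0.31 ± 0.24), *Rel* (0.26 ± 0.16) and *Nfkb1* (0.14 ± 0.42) completed the subunits. For *Nfkb1* the sums with *Myc* ran from 41.9 to 451 CPM, enclosing the 130 to 225 CPM without. Of the 53 other pathway genes tested beside *Myc*, 0 were called.

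**Figure D2:**
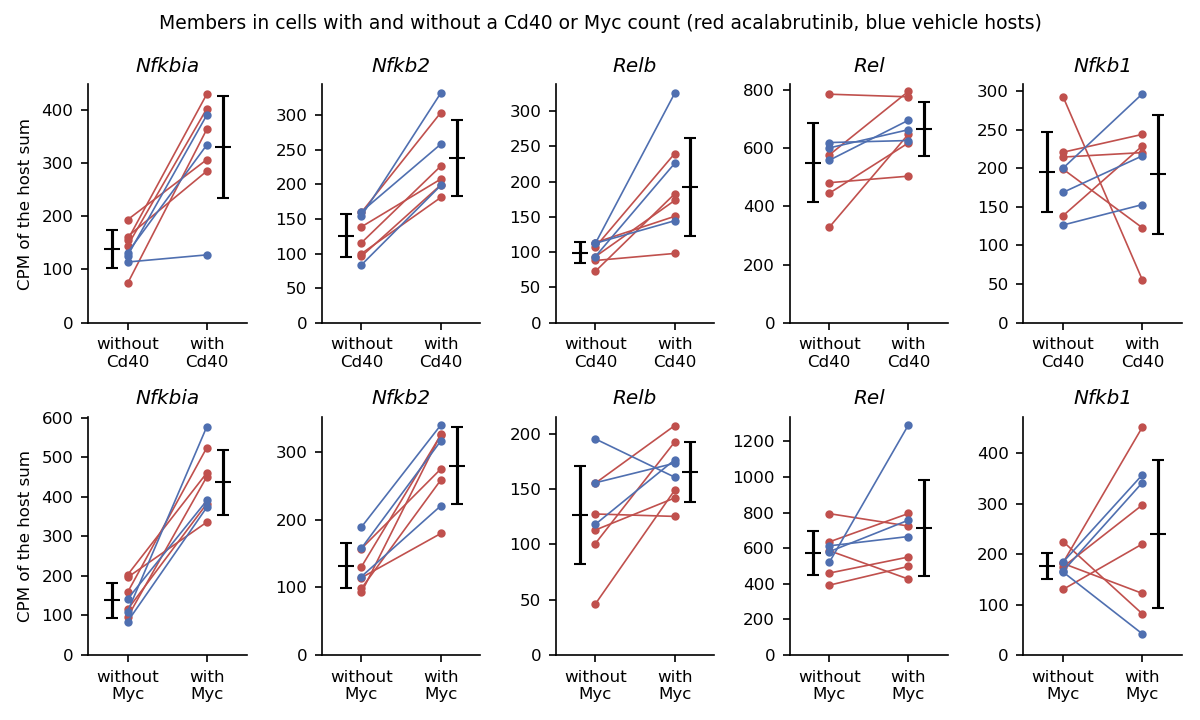
Per-host CPM of 5 members in cells without and with a Cd40 count (upper row) or Myc count (lower row). Lines join both sums of a host (red acalabrutinib, blue vehicle, n = 8), black bars are the mean ± SD, and axes start at 0; every line of *Nfkbia* and *Nfkb2* goes up, while those of *Nfkb1* cross.

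Shares of cells with a count were compared over 4 classes of cells. A *Nfkbia* count was present in 34.5% of the 319 cells with neither *Cd40* nor *Myc*, in 49.6% of the 141 with *Cd40* alone, in 61.8% of the 68 with *Myc* alone and in 85.3% of the 109 with both. *Nfkb2* went from 26.3% through 35.5 and 45.6% to 67.0% over the same classes. *Relb* stood at 18.8, 36.2, 41.2 and 47.7%, and *Nfkbie* at 14.7% in cells with neither and 44.0% in cells with both. *Rel* was already at 69.9% in cells with neither and reached 86.2% in cells with both. *Nfkb1* had about the same share in cells with neither (36.1%) and with *Cd40* alone (36.9%), and 51.5 and 54.1% in cells with *Myc* alone and with both. Over hosts, the share of *Nfkbia* was higher by 36.7 ± 13.0 percentage points with *Myc* (SD, 8 of 8 hosts) and by 22.1 ± 15.0 points with *Cd40* (7 of 8). Thinned cells gave 40.5 ± 15.9 points (7 of 7 hosts) and 21.1 ± 16.4 points (7 of 8).

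**Figure D3:**
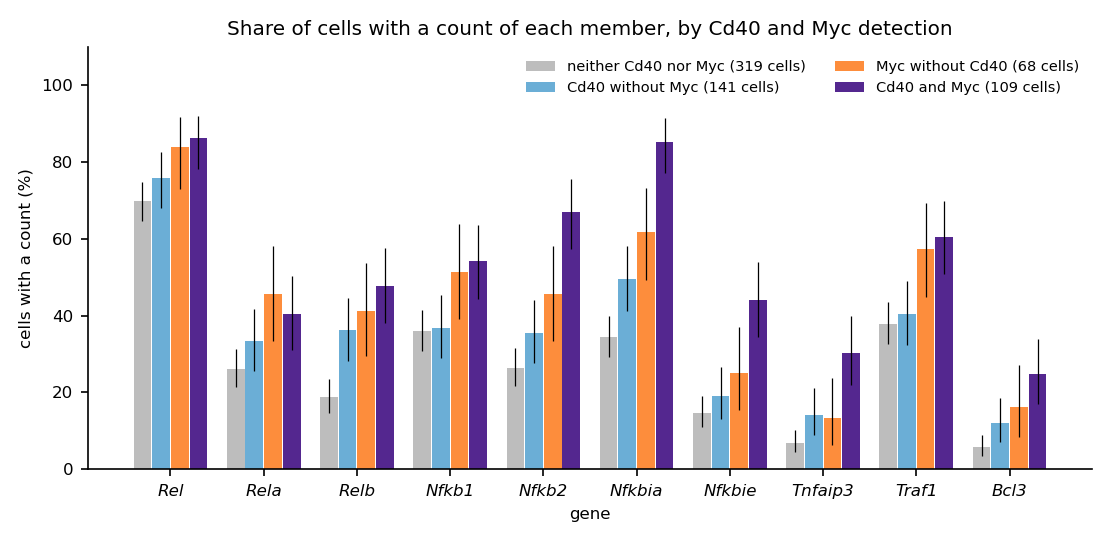
Percentage of cells with a count of each member in 4 classes of cells, by detection of Cd40 and Myc. Bars are pooled shares and lines exact binomial 95% intervals, which treat cells as independent and leave out the spread between hosts. *Nfkbia* goes from 34.5% in cells with neither to 85.3% in cells with both.

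A cell held a count of 2.77 of the 10 members on average when neither *Cd40* nor *Myc* was found, 3.53 with *Cd40* alone, 4.41 with *Myc* alone and 5.40 with both. In thinned cells these means were 2.81, 3.49, 4.32 and 5.31. The median number of all genes found per cell was 3760, 3924, 4407 and 4290 in the same classes before thinning. The means pool cells of all hosts, over which the share of cells with *Myc* ran from 10.9 to 43.9%. The part of either in the means was not tested. In all, 24 cells had none of the members and 2 cells had all 10, and 3 was the commonest number (137 cells).

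*Traf1*, an adaptor that binds other TRAF proteins at CD40 and related receptors, was the only member that edgeR called between cycling and G1 cells, while DESeq2 also called *Nfkb1*. It fell by 0.74 on the log2 scale in cells called S or G2/M. Its level was 75.7 to 283 CPM (median 182) in the 8 cycling sums and 108 to 481 CPM (median 305) in the 8 G1 sums. Cycling cells were lower in 7 of 8 hosts, with A7 about level, and the groups overlapped. The log2 fold change was -0.74 ± 0.17 (SE, edgeR with a host term, adjusted p = 0.0399). Over all genes edgeR called 397 of 12550 (3.16%), 147 of them lower (1.17%), and DESeq2 called 1961 genes, 701 of them lower. The median of all genes was 0.13, so *Traf1* lay 0.87 below it. The share of cells with a *Traf1* count was 44.4% in G1 and 44.5% in cycling cells, while the median level in cells with a count was 645 CPM in G1 and 357 CPM in cycling cells. The call was kept without A7 or V7 and lost without A8, A10, A11, A12, V5 or V9 (adjusted p = 0.0733 to 0.104). It was also lost without a filter on low counts (adjusted p = 0.138), without the host term (adjusted p = 0.182), with cells thinned to the same depth (-0.68, adjusted p = 0.102) and with cycling defined by summed expression above the median, where the log2 fold change was -0.35.

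The other 9 members did not pass edgeR's test. *Nfkb1* was 163 ± 46.1 CPM in cycling and 245 ± 87.4 CPM in G1 cells (log2 fold change -0.58 ± 0.24, adjusted p = 0.301). DESeq2 called *Nfkb1* lower (-0.63, adjusted p = 0.0370), among the 701 genes that it called lower. *Relb* (-0.38 ± 0.16), *Nfkb2* (-0.48 ± 0.26), *Rel* (-0.19 ± 0.13) and *Nfkbia* (-0.20 ± 0.13) had values below 0, as did *Nfkbie* (-0.20 ± 0.23), *Tnfaip3* (-0.05 ± 0.36) and *Bcl3* (-0.39 ± 1.15). *Rela* was the only member with a log2 fold change above 0 (0.56 ± 0.46). Its level was higher in cycling cells in 4 of 8 hosts, and V5 had 17.6 CPM in G1 and 212 CPM in cycling cells. Its share of cells was 25.8% in G1 and 36.2% in cycling cells, and this share was higher in cycling cells in 6 of 8 hosts. The shares of *Nfkbia* (by 7.26 ± 7.81 percentage points, SD), *Nfkbie* (5.21 ± 8.47) and *Relb* (3.46 ± 7.22) were higher in 7 of 8 hosts each, unlike their fitted levels. In thinned cells *Nfkbia* and *Nfkbie* stayed at 7 of 8 hosts, and *Relb* was at 4 of 8. The shares of *Nfkb1* and *Nfkb2* were higher in 3 of 8 hosts before thinning. The median log2 fold change over the members was -0.29. Of the 53 other pathway genes tested 3 fell and 0 rose. Among them were *Cd83* (log2 fold change -0.85 ± 0.13, adjusted p = 0.0049) and *Cd86* (-0.79 ± 0.17, adjusted p = 0.0288), surface molecules of activated and LZ B cells. The median depth was 869386 counts in cycling and 687083 in G1 cells. *Cd83* and *Cd86*, also light zone markers, summed to 1450 CPM in cycling and 2450 CPM in G1 cells, and their part in the *Traf1* difference was not tested.

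**Figure D4:**
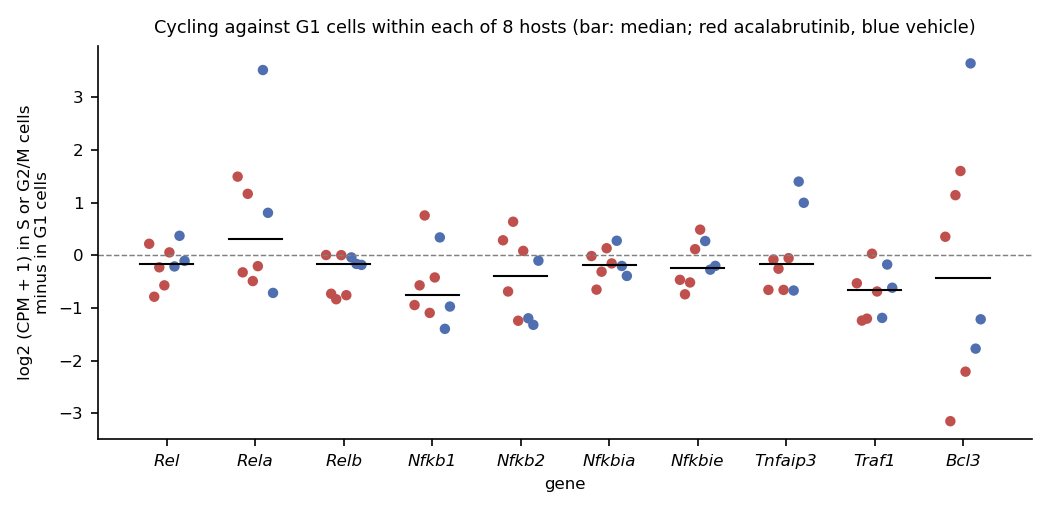
Difference of log2(CPM + 1) between cells called S or G2/M and cells called G1, for each member in each host. Points are the 8 hosts (red acalabrutinib, blue vehicle), bars their median, and the dashed line is 0; 7 of 8 hosts lie below 0 for *Traf1*.

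Whether the cycling difference depended on treatment was tested as an interaction. It was called for 0 of 18005 genes by edgeR (0%), with 548 at an unadjusted p under 0.05 and 435 called by DESeq2, no member in either. At the spread of these data edgeR's test found 0 of 200 simulated 4-fold interactions, in genes drawn over a wide range of levels. Its count of 0 therefore says nothing about whether the cycling difference depended on treatment. *Traf1* had an interaction of -0.04 ± 0.37, and the widest among subunits were *Rela* (-0.80 ± 1.01) and *Nfkb2* (0.73 ± 0.50).

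Members were weakly correlated with each other across cells. Over all cells, the Spearman correlation of log2(CPM + 1) had a median of 0.10 over the 45 pairs, with a range of -0.02 to 0.29, and 22 pairs were at 0.1 or above. Against all genes found in at least 25% of cells the members had a median of 0.01, and 2313 of 57033 such pairs were at 0.1 or above. All these points share the depth of each cell, and the members' own correlations with total counts ran from 0.02 (*Rel*) to 0.17 (*Nfkbia*). With cells thinned to the same depth the median over the 45 pairs was 0.09 and 20 pairs were at 0.1 or above. These values are a description, with cells of the same host and plate among the points.

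*Nfkbia* lay at the centre of the stronger pairs. Its correlation was 0.29 with *Relb*, 0.26 with *Nfkbie*, 0.25 with *Nfkb2*, 0.25 with *Tnfaip3* and 0.23 with *Bcl3*. Within hosts, the pair with *Relb* had a median of 0.28 (0.17 to 0.38), above 0 in 8 of 8 hosts. *Nfkbie* and *Bcl3* were both found in 37 cells, 2.32 times the 15.9 cells that independent detection would give. *Rela* stood apart, with 0.08 or less to every member, and *Rel* reached 0.16 with *Relb* and *Nfkbia*. *Nfkb1* had its highest value among members with *Nfkbia* (0.11).

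**Figure D5:**
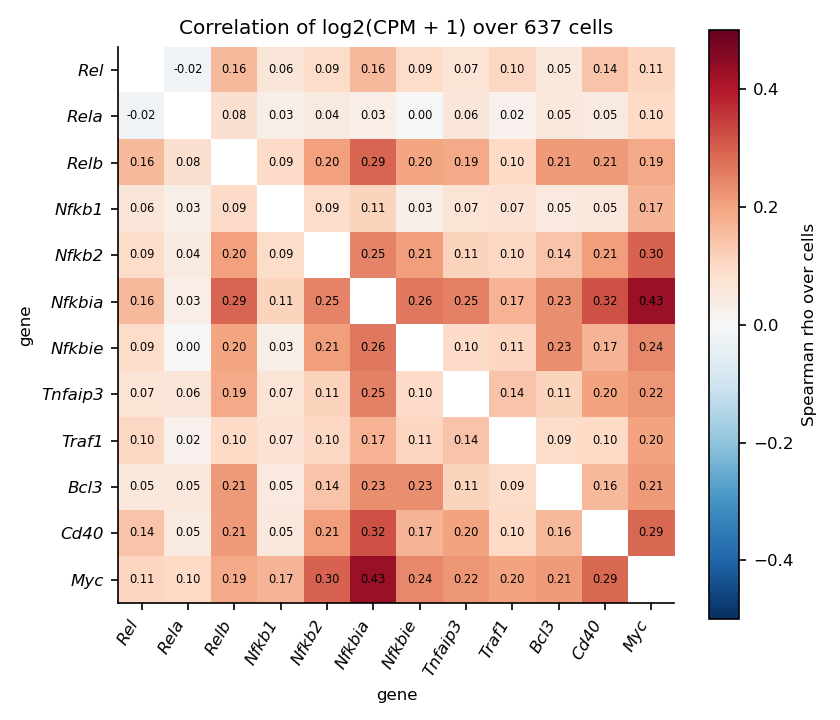
Spearman correlation of log2(CPM + 1) over all cells between the 10 members, Cd40 and Myc. Red is positive and blue negative; the highest value is 0.43 (*Nfkbia* with *Myc*), and the row of *Rela* is close to 0.

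*Cd40* and *Myc* were as close to some members as the members were to each other. *Myc* correlated at 0.43 with *Nfkbia*, at 0.30 with *Nfkb2* and at 0.24 with *Nfkbie*. *Cd40* correlated at 0.32 with *Nfkbia* and at 0.21 with *Nfkb2* and *Relb*. The *Nfkbia* and *Myc* value was 0.52 in G1 and 0.37 in cycling cells, and 0.29 to 0.47 within hosts. Of 177 cells with *Myc*, 135 also had *Nfkbia*, where independent detection would give 87.5.

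Among all genes found in at least 25% of cells, *Myc* was the closest to *Nfkbia* and to *Nfkb2*. The next were *Cd83* for *Nfkbia* (0.40) and *Ly75* for *Nfkb2* (0.27). *Rel* was closest to *Cd83* (0.31) and *Fchsd2* (0.21), and *Relb* to *Nfkbia* and *Cd83* (0.25). *Nfkbie* had *Nfkbia* and *Myc*, *Tnfaip3* had *Nfkbia* and *Pim1* (0.25), and *Bcl3* had *Nfkbia* and *Relb* (0.21). *Traf1* was closest to *Grap* (0.20) and *Myc* (0.20), *Nfkb1* to *Ifngr2* (0.18) and *Myc* (0.17), and *Rela* to *Llph* (0.17) and *Srp19* (0.16).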

How the data were processed

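Single LZ B cells were sequenced by SMART-seq2. The authors used STARsolo 2.7.10a with GRCm39 release 107, took any read over a gene's exons or introns, and deposited counts deduplicated by exact position, with no normalization. The members and lists were chosen with earlier results of these data known. Groups come from the labels and hosts from the cell names. Every host had at least 5 cells in each sum over all cells. In fits on thinned cells or single phases, hosts below that were left out. Counts were summed per host, or per host and cell class with a host term, and tested with edgeR 4.0.16 in R 4.3.3 (quasi-likelihood, TMM, filterByExpr, Benjamini-Hochberg over all genes, threshold 0.05). In the treatment test p-values measure the spread between hosts. In fits with a host term they measure the spread of within-host differences over hosts. DESeq2 1.42.0 was an alternative. Phases were called with Seurat 5.3.0, and 30 of 637 cells (4.71%) lay within 0.05 of a phase border. For thinning, each cell was drawn to 459128 counts, leaving out 64 cells. Exon lengths are from GENCODE M21, on another assembly, so no coordinates of the counted genes are given. The rest was done in Python 3.11.15 with SciPy 1.17.1. Each edgeR step was first tested on simulated data. With 200 genes, drawn over a wide range of levels, changed 4-fold at the spread of these data, it found 33.0% for treatment and 42.0% for cycling. It found 54.0% for *Cd40*, 23.5% for *Myc* and 0% for the interaction. The named genes are the 10 members, up to 8 called genes of a fixed list of 61 pathway genes by smallest adjusted p, and the 2 genes closest to each member by Spearman correlation. Doublets were not called, since each cell had its own well. Alternatives were another scaling, no filter, thinning, leaving out each host, no host term, other thresholds for a cell class, and single phases. One called pathway gene is not reported here. The genotype comparison was not analysed here.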

Additional observations from a re-analysis of the deposited data

Results flagged for a closer look

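Of 50 groups of hosts examined for a single value far from the others (levels and shares in the 5 acalabrutinib hosts, and within-host differences over 8 hosts), 2 had one, where chance gives about 1 in 20. Both came from A7, the host with the fewest cells (45). *Nfkb1* in A7 was lower in cells with a *Cd40* count by -2.38 on the log2(CPM + 1) scale, where the other hosts ran from -0.69 to 0.72. *Traf1* in A7 was lower in cells with a *Myc* count by -1.14, where the other hosts ran from 0.27 to 1.07.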

How the results depend on the processing

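DESeq2 called more genes than edgeR throughout: 105 for treatment, 1961 for cycling, 430 for *Cd40*, 1194 for *Myc* and 435 for the interaction. Without a filter, edgeR called 200 genes for cycling and 0 for *Myc*. Leaving out a host gave 240 to 301 genes for cycling, 0 to 1 for *Cd40* and 0 to 6 for *Myc*, with 0 for treatment and the interaction. The cycling count fell by over 1.5 times without A8 (256), A12 (259), V7 (252) or V9 (240). The *Cd40* count was 1 without V5 or V9. The *Myc* count was 3 without A12 and 0 without A8, A10, A11, V5, V7 or V9. For *Cd40*, relative log expression factors, no replicate block (no host term) and a threshold of 10 counts each called 2 genes. For *Myc*, no replicate block called 22 genes, a threshold of 10 counts 2, and G1 cells alone or, chosen after seeing the data, S or G2/M cells alone 0. Each fit with fewer cells or hosts has less to test with, and otherwise the cause was not tested. Of 160 refits of the members for *Myc*, 156 kept the sign, as did 152 of 160 for *Cd40*, 132 of 140 for cycling, 124 of 140 for treatment and 116 of 130 for the interaction.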
